A study of Homo sapiens with 4 samples.

Results

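The genes described here are those that build sterols and fatty acids in the cell, followed in human cells after knockdown of CEBPG, a bZIP transcription factor of the C/EBP family. They were taken as a named list of 37 genes: 24 of sterol synthesis, its control and sterol transfer, and 13 of fatty acid synthesis, desaturation, elongation and activation. Of these, 36 had a row among the 16504 gene symbols of the table. SC5D, a late sterol desaturase, was not analysed here. RNA-seq was performed on 4 libraries labelled NB4, a cell line from human acute promyelocytic leukemia, with 2 control libraries (labelled NC) and 2 CEBPG knockdown libraries (labelled CEBPG3). The study delivered short hairpin RNAs (shRNAs) from the pLKO.1-puro lentiviral vector and selected infected cells with puromycin. The number 3 in the label was read as the third CEBPG shRNA, which is an assumption, so the knockdown group stands for 1 hairpin. Nothing in the labels says that replicates were separate cultures, so p-values measure only the spread between these libraries, which may be technical.

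Sterols and fatty acids are both built from acetyl-CoA. The mevalonate pathway turns it into farnesyl diphosphate, from which squalene, lanosterol and finally cholesterol are made, while carboxylation of acetyl-CoA to malonyl-CoA feeds fatty acid synthase, whose product is then desaturated, elongated and activated with coenzyme A. Many of the enzymes are transcribed under the SREBP factors, which SCAP carries out of the endoplasmic reticulum when sterols are low and which INSIG proteins hold back when sterols are high. Proliferating leukemia cells use both pathways for membranes.

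Expression was given as FPKM (fragments per kilobase of transcript, scaled by the mapped fragments of the library), summed per gene, and a change is the difference of log2(FPKM + 1) between knockdown and control, written as log2 fold change. This scale understates the change of low genes. A gene was called higher or lower at a limma adjusted p under 0.05. FPKM summed to between 346170 and 367105 per library, and the read depth behind these values is unknown. CEBPG itself had control values of 17.1 and 18.1 FPKM and knockdown values of 6.91 and 7.96, or 42.2% of control (log2 fold change −1.14, adjusted p = 0.000836). The libraries went against the cell line label in their markers. All 11 erythroid markers were present, summing to between 7777 and 9230 FPKM, led by the fetal globin gene HBG2 at 2890 to 3766. The 4 promyelocytic granule markers with a row summed to between 16.1 and 21.2 FPKM, nearly all of it LYZ at 15.0 to 20.1, while PRTN3, AZU1 and MS4A3 stayed under 1 FPKM in every library. Of the 8 myeloid surface and regulator genes, which summed to between 29.3 and 36.7 FPKM, 5 had a mean under 1 FPKM, with CEBPA at 0.175 to 0.382. Both groups shared this pattern, and upon knockdown the erythroid markers HBG1 and HBG2 rose and HBZ and ALAS2 fell, as did LYZ. The HBG1, HBG2 and LYZ calls were each lost without knockdown replicate 1 (adjusted p = 0.192, 0.421 and 0.140) and also without knockdown replicate 2 (0.117, 0.220 and 0.0942). Without control replicate 1 the HBG2 and LYZ calls were lost (0.0597 and 0.0800), as was HBG2 without control replicate 2 (0.170). Their part in the results below was not tested.

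Upon CEBPG knockdown, 10 of the 36 lipid synthesis genes fell and 4 rose. The called share was 38.9% of the members, against 20.9% of all 10968 genes tested. By direction, 27.8% of the members and 9.99% of all genes were called lower, and 11.1% of the members and 10.9% of all genes were called higher, so the higher share was near the background. All 36 members passed the filter of a mean of at least 1 FPKM. In the fit limited to genes that averaged at least 5 FPKM, 2210 of 7609 genes were called (1119 higher, 1091 lower). That fit called 10 of 22 sterol and 5 of 12 fatty acid genes. The background share was thus larger among genes of higher level, and the shares given here and below are not matched for level. The median log2 fold change of the members was −0.14, against 0.02 for all tested genes. Groups did not overlap for 25 members (69.4%), near the 64.8% of all tested genes. Summed over the members, FPKM was 1480 and 1401 in control and 1332 and 1298 upon knockdown. Mean levels over the 4 libraries ranged from 4.13 FPKM for ACACA, which was at 0.0585 FPKM in knockdown replicate 2, to 142.3 for SQLE.

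**Figure D1:**
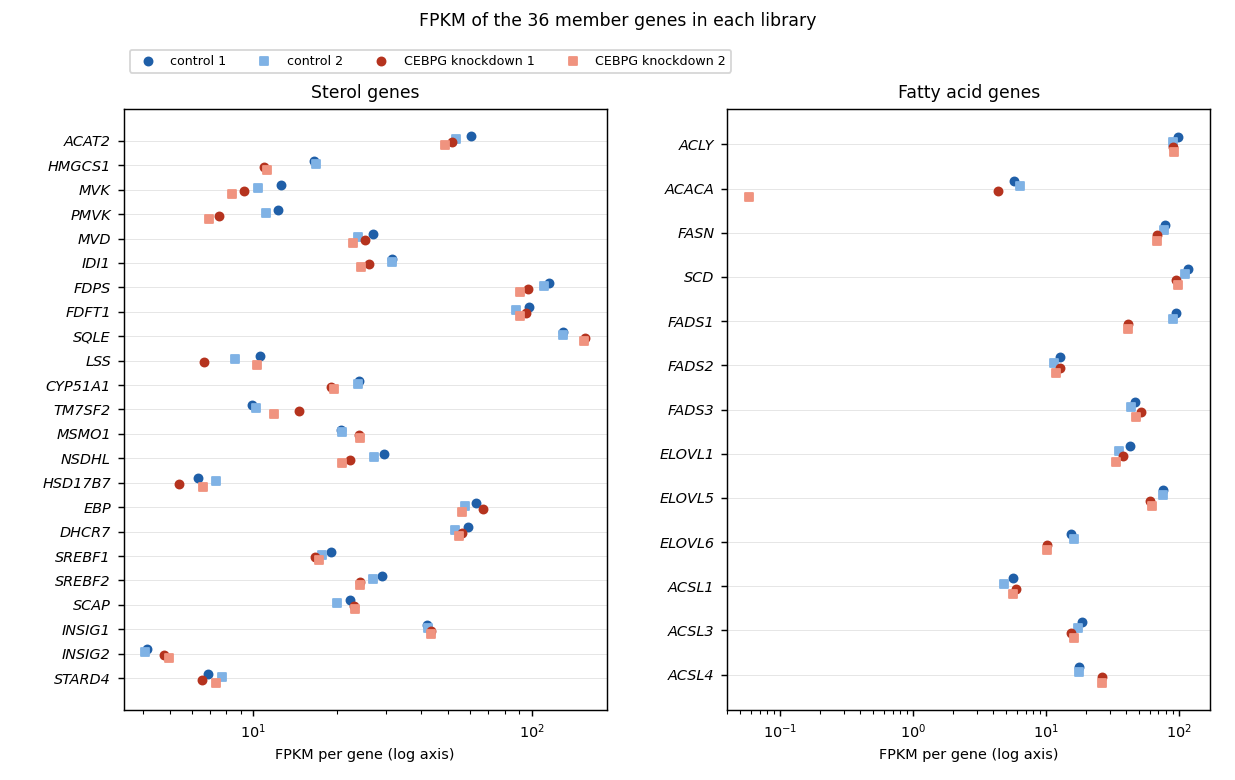
FPKM per gene on a log axis for the 36 members, sterol and fatty acid genes in separate panels, with 1 point per library coloured by group. The knockdown points of FADS1 sit at 41.2 and 41.6 FPKM, apart from the control points at 90.2 and 94.1, and 1 knockdown point of ACACA lies at 0.0585 FPKM, far from the other 3 libraries.

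The 7 enzymes from acetyl-CoA to farnesyl diphosphate all had lower mean levels upon knockdown, and 4 of them fell: HMGCS1, PMVK, IDI1 and FDPS. Of all tested genes, 47.3% had a lower mean at any size and 9.99% were called lower, against 57.1% called lower here. Their median log2 fold change was −0.31, and the sum of the 7 genes went from 276.0 and 257.9 FPKM in the control libraries to 228.3 and 213.5 in the knockdown libraries. None of the 7 was called higher.

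HMGCS1, which condenses acetoacetyl-CoA with acetyl-CoA into HMG-CoA, had 16.5 and 16.8 FPKM in control and 10.9 and 11.2 upon knockdown. The groups were well apart, with 16.7 ± 0.152 against 11.1 ± 0.177 FPKM (mean ± SD, n = 2 each), or 66.5% of control (log2 fold change −0.55, SE 0.06, adjusted p = 0.00278). Both of its transcripts were lower, NM_001098272 from 9.31 and 7.43 to 5.07 and 5.38 FPKM and NM_002130 from 7.23 and 9.32 to 5.88 and 5.82. With only the most abundant transcript, the call was lost (log2 fold change −0.43, adjusted p = 0.134). HMGCS1 lies on chromosome 5 (43287470 to 43313412, RefSeq GRCh38.p14, minus strand), and 44.2% of its exon bases are overlapped by a gene on the opposite strand in GENCODE. Strand-specific counting is not given in the sources used here, so reads of that partner cannot be told apart.

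PMVK, the phosphomevalonate kinase, had 12.2 and 11.2 FPKM in control and 7.55 and 6.91 upon knockdown. This was 61.9% of control and the largest called decrease among the sterol genes (log2 fold change −0.62, SE 0.08, adjusted p = 0.00402). PMVK has 1 transcript in the table, lies on chromosome 1 (154924740 to 154942658) and shares no exon bases with another gene.

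IDI1, which isomerises isopentenyl diphosphate, went from 31.5 and 31.4 FPKM to 26.1 and 24.4, or 80.2% of control (log2 fold change −0.31, adjusted p = 0.0168). IDI1 was at −0.16 with its most abundant transcript alone and not called (adjusted p = 0.317). FDPS, the farnesyl diphosphate synthase and the most abundant gene of this stretch, had 115.7 and 110.7 FPKM in control and 97.5 and 91.0 upon knockdown. Its decrease to 83.3% of control passed the test (log2 fold change −0.26, adjusted p = 0.0289). Without knockdown replicate 1 or knockdown replicate 2 the IDI1 call was lost (adjusted p = 0.0598 and 0.111), as was the FDPS call (0.0992 and 0.202, and 0.0630 without control replicate 1). FDPS has 8 pseudogenes and IDI1 has 3 in GENCODE, and 34.9% of FDPS exon bases are overlapped by RUSC1-AS1 on the opposite strand, so both values are uncertain to the extent that reads were shared.

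The remaining enzymes of the stretch did not pass the test. MVK, the mevalonate kinase, had 12.6 and 10.4 FPKM in control and 9.23 and 8.36 in knockdown (log2 fold change −0.34, adjusted p = 0.0519), and it was called lower without control replicate 2 (adjusted p = 0.0238), with a filter at 5 FPKM (0.0298) and after median-ratio scaling (0.0312), whereas without control replicate 1 its log2 fold change was −0.22 (adjusted p = 0.156). ACAT2, the cytosolic thiolase, had 60.6 and 53.7 FPKM against 51.8 and 48.8 (log2 fold change −0.18, adjusted p = 0.135), and it too was called without control replicate 2 (adjusted p = 0.0477), while without control replicate 1 it was at −0.09 (adjusted p = 0.386). Opposite-strand genes, TCP1 among them, overlap 36.3% of ACAT2 exon bases. MVD, the diphosphomevalonate decarboxylase, overlapped between groups, with 26.9 and 23.8 FPKM against 25.1 and 22.7 (adjusted p = 0.524).

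From squalene to cholesterol, calls went in both directions. Of 10 enzymes measured, SQLE, TM7SF2 and MSMO1 rose and CYP51A1 and NSDHL fell, and the median log2 fold change was 0.00. These were 3 of 10 higher and 2 of 10 lower, against 10.9% higher and 9.99% lower of all tested genes. The summed level of the 10 genes was 450.9 and 427.1 FPKM in control and 465.7 and 450.0 in knockdown, overlapping between groups.

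SQLE, the squalene epoxidase and the member with the highest level, had 129.8 FPKM in either control and 155.1 and 154.4 upon knockdown. Both knockdown libraries stood above both controls, at 119.2% of control (log2 fold change 0.25, SE 0.05, adjusted p = 0.0204). MSMO1, which oxidises the methyl groups of lanosterol-derived sterols, went from 20.6 and 20.8 FPKM to 24.02 and 24.23, or 116.7% (log2 fold change 0.21, adjusted p = 0.0430). TM7SF2, a sterol reductase of the endoplasmic reticulum, had 9.90 and 10.2 FPKM against 14.6 and 11.8 (log2 fold change 0.35, adjusted p = 0.0471). That change was 0.21 without knockdown replicate 1 and 0.50 without knockdown replicate 2. The TM7SF2 values were divided unevenly: the noncoding transcript NR_102367 was at 0 and 3.56 FPKM in control and 9.15 and 1.14 in knockdown, and the coding NM_003273 was at 9.90 and 6.67 against 5.45 and 10.7. With its most abundant transcript alone the log2 fold change was −0.07, and after median-ratio scaling of the libraries the call was lost (adjusted p = 0.0522), while MVK and SREBF2 were added, so that 2 sterol genes were called higher and 8 lower in place of 3 and 6.

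CYP51A1, the lanosterol demethylase, had 23.99 and 23.88 FPKM in control and 18.97 and 19.45 upon knockdown, 80.2% of control (log2 fold change −0.30, adjusted p = 0.0152). Most of its exon bases (78.5%) are shared with other annotated genes, some on the same strand, and it has 3 pseudogenes. NSDHL, a dehydrogenase that works with MSMO1 in removing those methyl groups, fell from 29.6 and 27.2 to 22.2 and 20.8 FPKM, or 75.9% (log2 fold change −0.38, adjusted p = 0.0130). Members of 1 demethylation step were thus called in opposite directions, and HSD17B7, the reductase of that step, overlapped between groups at 6.31 and 7.36 against 5.42 and 6.60 FPKM.

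These 5 calls were sensitive to single libraries. Without knockdown replicate 1, SQLE (adjusted p = 0.158), MSMO1 (0.176), TM7SF2 (0.200) and CYP51A1 (0.101) were not called. Without knockdown replicate 2, SQLE (adjusted p = 0.142), MSMO1 (0.184), CYP51A1 (0.0729) and NSDHL (0.0801) were not called. Without control replicate 1 or 2, MSMO1 (adjusted p = 0.0847 and 0.0817) and TM7SF2 (0.108 and 0.0902) were not called. Of the 9 sterol calls, 3 were left in either of the fits without a knockdown library, where calls over all genes went from 2288 to 825 and 838.

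The other enzymes of this stretch gave no call. FDFT1, the squalene synthase, had 97.97 and 88.29 FPKM against 95.8 and 91.0, with a 95% confidence interval of the log2 fold change from −0.16 to 0.17. DHCR7, the last reductase before cholesterol, had 59.0 and 53.2 FPKM against 56.2 and 55.0 (interval −0.17 to 0.15). EBP, the sterol isomerase, had 63.2 and 57.8 FPKM against 66.8 and 56.3, and 52.1% of its exon bases are shared with another gene. LSS, the lanosterol synthase, overlapped between groups as a gene, at 10.6 and 8.56 FPKM against 6.66 and 10.3 (log2 fold change −0.18, adjusted p = 0.511), but with its most abundant transcript alone it was called higher (log2 fold change 2.85, adjusted p = 0.00779).

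The groups did not overlap for 3 of its 4 transcripts. LSS transcript NM_001001438 was at 0.0929 and 0.0519 FPKM in control and 6.66 and 6.77 in knockdown. In the other direction, NM_001145436 (1.249 and 3.202 FPKM in control) and NM_001145437 (2.59 and 2.75) were listed at 0 in both knockdown libraries. The reference transcript NM_002340 had 6.64 and 2.56 FPKM in control and 0 and 3.51 in knockdown. The division of reads between transcripts of 1 gene is estimated, and whether the LSS values follow RNA or that division was not tested.

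**Figure D2:**
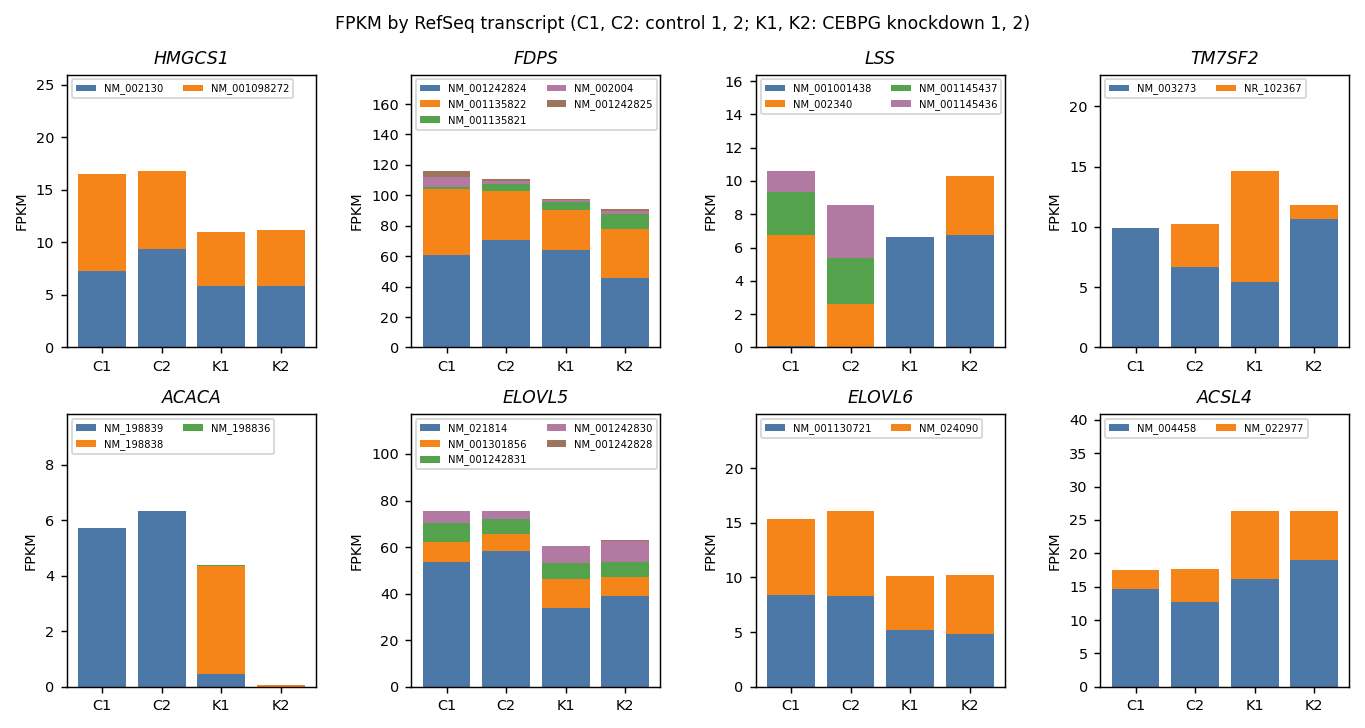
FPKM by RefSeq transcript in each library for HMGCS1, FDPS, LSS, TM7SF2, ACACA, ELOVL5, ELOVL6 and ACSL4, with bars from 0 stacked by transcript and C and K for control and CEBPG knockdown. LSS NM_001001438 makes up under 1% of the gene in both controls and 100% and 65.8% of it upon knockdown. The main transcript of ACACA differs between the controls and knockdown replicate 1, and the gene is at 0.0585 FPKM in knockdown replicate 2.

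The sensors and regulators of the pathway gave no call in the comparison without scaling or a replicate block. SREBF2, the main sterol SREBP gene, had 28.9 and 26.9 FPKM in control and 24.2 and 24.1 upon knockdown (log2 fold change −0.20, adjusted p = 0.0672). It was called lower after median-ratio scaling (−0.21, adjusted p = 0.0271) and with a replicate block (adjusted p = 0.0328). SREBF1, which drives fatty acid genes, had 19 and 17.6 FPKM against 16.6 and 17.2 (log2 fold change −0.11, adjusted p = 0.287). SCAP had 22.26 and 19.99 FPKM against 23.0 and 23.2 (adjusted p = 0.249). INSIG1, an SREBP target and a common readout of sterol status, had 42.1 and 42.3 FPKM against 43.5 and 43.7, and its interval ran from −0.09 to 0.18. INSIG2 had 4.16 and 4.10 FPKM against 4.78 and 4.98 (log2 fold change 0.20, adjusted p = 0.116). The groups did not overlap for any of the 5, 2 lower and 3 higher, which 64.8% of all tested genes also showed. STARD4, a cytosolic sterol transfer protein, overlapped between groups at 6.88 and 7.69 against 6.54 and 7.32 FPKM.

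The fatty acid synthesis enzymes proper gave no call either. ACLY, which makes cytosolic acetyl-CoA from citrate, had 97.6 and 90.5 FPKM in control and 90.4 and 91.5 in knockdown (interval −0.19 to 0.10). FASN, the fatty acid synthase, had 78.8 and 76.7 FPKM against 68.5 and 68.4. Both of its knockdown values lay below both controls, at 88.0% of control, and the difference missed the threshold (log2 fold change −0.18, adjusted p = 0.0579), which it passed after median-ratio scaling (adjusted p = 0.0208). ACACA, the acetyl-CoA carboxylase that makes malonyl-CoA, had 5.73 and 6.35 FPKM in control but 4.37 and 0.0585 in knockdown. Its log2 fold change of −1.56 was the 5th lowest of all tested genes, yet it rested on knockdown replicate 2 and was not called (SE 0.64, adjusted p = 0.127). Without that library the log2 fold change was −0.39 (adjusted p = 0.0759), and without knockdown replicate 1 it was −2.73 (adjusted p = 0.00136). ACACA was called lower with its most abundant transcript alone, NM_198839 (−2.52, adjusted p = 0.0201). In the control libraries 99.9% and 99.6% of ACACA FPKM belonged to NM_198839, against 10.9% and 16.1% in the knockdown libraries, where NM_198838 held 89.0% and 83.3%. In knockdown replicate 2 these were shares of 0.0585 FPKM, with NM_198838 at 0.0487 and NM_198839 at 0.0094 FPKM. The change of main transcript thus rested on knockdown replicate 1. Whether it follows RNA or the estimated division of reads was not tested.

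The desaturases held the largest called change of the whole gene list, that of FADS1. This enzyme introduces a double bond in the last desaturation step to arachidonic acid. FADS1 had 94.1 and 90.2 FPKM in control and 41.6 and 41.2 upon knockdown. The replicates lay close together within each group, at 92.2 ± 2.72 and 41.4 ± 0.283 FPKM (mean ± SD, n = 2 each). The level was 44.9% of control (log2 fold change −1.13, SE 0.06, interval −1.269 to −1.001, adjusted p = 0.00035). FADS1 ranked 26th from the lowest among all 10968 log2 fold changes and was called under all 11 alternatives tried.

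SCD, which introduces the first double bond into saturated fatty acids, fell less, from 117.4 and 111.6 to 94.8 and 98.6 FPKM, or 84.4% of control (log2 fold change −0.24, adjusted p = 0.0310). Its call was lost without knockdown replicate 1 (adjusted p = 0.214), knockdown replicate 2 (0.129) or control replicate 1 (0.0676). FADS2, which performs the preceding desaturation to that of FADS1, overlapped between groups at 12.6 and 11.6 against 12.7 and 11.9 FPKM (interval −0.15 to 0.20). FADS3 had 47.0 and 43.6 FPKM against 51.3 and 47.6 (log2 fold change 0.12, adjusted p = 0.231).

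FADS1, FADS2 and FADS3 form a cluster on chromosome 11, so the genes around FADS1 were read as well, a choice made after the FADS1 values were seen. FADS1 (61799627 to 61817003, minus strand) and FADS2 (61816203 to 61867354, plus strand) overlap head to head, and 6.41% of FADS1 exon bases are shared. Within 100 kb, MYRF (log2 fold change 0.12, adjusted p = 0.204), TMEM258 (0.12, 0.209) and FEN1 (0.04, 0.734) were not called. RAB3IL1, on the far side of FADS3, had 13.7 and 12.1 FPKM in control and 9.23 and 8.89 in knockdown and was called lower (log2 fold change −0.47, adjusted p = 0.00995), a call lost without knockdown replicate 2 (adjusted p = 0.0541).

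**Figure D3:**
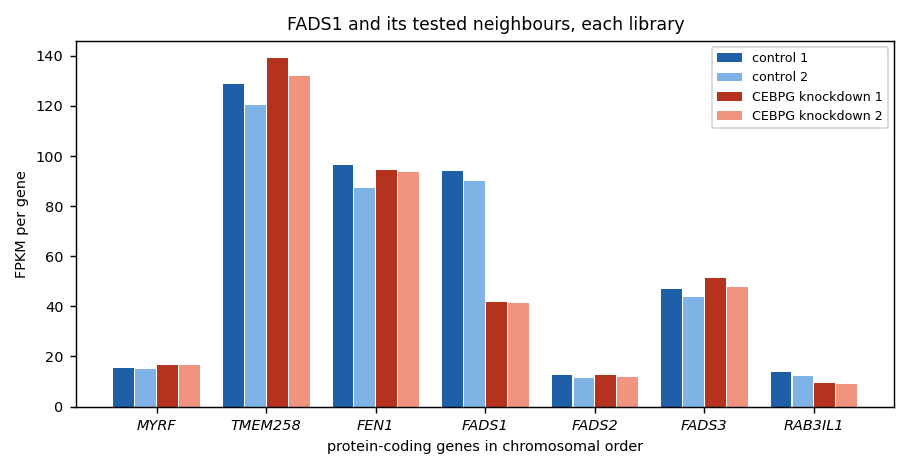
FPKM per gene in each library for FADS1 and its tested protein-coding neighbours in chromosomal order, with 1 bar per library coloured by library. FADS1 drops from above 90 to about 41 FPKM, while the values of FEN1 and FADS2 on either side of it overlap between groups.

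Promoter windows of RefSeq (250 bases before to 50 after the gene start) were given for 32 of the 36 genes, with 45 windows. They were read for motifs on both strands, and a match describes letters in a window, not a site in use. The cyclic AMP response element TGACGTCA, bound by bZIP factors, was looked for after the FADS1 window had been read. Its match there was therefore known in advance, and a link to the knockdown was not tested. The element was found in 2 of the 32 member genes (6.25%), FADS1 and ELOVL5, and in 4.17% of all tested genes with a window. These stretches are shown with the element in capitals, 5′ to 3′ on the strand of the gene, since they belong to the fatty acid genes with the largest and a further called decrease. FADS1 is shown at chr11:61817047-61817076 (minus strand, element at −62 to −55 from the start) and ELOVL5 at chr6:53348980-53349009 (minus strand, −48 to −41).
FADS1: cgatgcccgccTGACGTCAggaagtcgaat
ELOVL5: ccgcgccattgTGACGTCAcggtcagccca

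The C/EBP site letters TTGCNNAA were in 4 members (ACSL1, FADS1, NSDHL and SCAP), or 12.5%, against 9.59% of tested genes. The C/EBP-ATF response element TGATGNAAT was in none of the 32, against 0.649% of tested genes. The sterol response element TCACNCCAC was in ACSL1 and SREBF2, or 6.25% of members against 1.38% of tested genes, and neither gene was called. The E-box CACGTG was in 12.5% of members (ELOVL5, INSIG1, LSS and SCAP) and 13.2% of tested genes. CCAAT, the box bound by NF-Y, was in 24 members (75.0%), against 43.9% of tested genes. By call it was in 6 of 10 members that fell, 2 of 3 that rose and 16 of 19 that were not called. The CCAAT stretches of 3 members that fell and the sterol response element of SREBF2 show these motifs, in capitals, on the gene strand. HMGCS1 is shown at chr5:43313551-43313579 and chr5:43313496-43313524 (minus strand, reverse complement of the box), FDPS at chr1:155308732-155308760 (plus strand), SCD at chr10:100347035-100347063 (plus strand) and SREBF2 at chr22:41832962-41832990 (plus strand).
HMGCS1, first box: agtttccttttgATTGGtagaagccggac
HMGCS1, next box: ctaccggccgcgATTGGctgtgggagcca
FDPS: gacggccagcagCCAATcagcgcggctca
SCD: aattcccttcggCCAATgacgagccggag
SREBF2: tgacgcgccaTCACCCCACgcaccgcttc

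Of the 3 elongases, 2 fell and none rose, with a median log2 fold change of −0.29, and 9.99% of all tested genes were called lower. ELOVL6, which elongates palmitate and related saturated chains, had 15.4 and 16.1 FPKM in control and 10.2 in either knockdown library. At 64.7% of control this was the second largest called decrease of the fatty acid genes (log2 fold change −0.58, SE 0.06, adjusted p = 0.0026). Both of its transcripts were lower, NM_001130721 from 8.42 and 8.29 to 5.16 and 4.79 FPKM and NM_024090 from 6.96 and 7.82 to 4.99 and 5.43. ELOVL6 lies on chromosome 4 (110045846 to 110199202).

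ELOVL5, which elongates polyunsaturated chains between the FADS2 and FADS1 steps, fell from 75.7 and 75.6 to 60.4 and 62.9 FPKM, or 81.5% of control (log2 fold change −0.29, adjusted p = 0.0151). The main transcript NM_021814 went from 53.4 and 58.2 to 33.9 and 39.1 FPKM, while NM_001301856, with 13.5% of the gene, had 8.71 and 7.48 against 12.6 and 8.22. With the main transcript alone the log2 fold change was −0.60 (adjusted p = 0.0445). Without knockdown replicate 1 or 2 the call was lost (adjusted p = 0.130 and 0.0780). ELOVL1, which acts on very long saturated chains, had 43.1 and 35.1 FPKM against 37.8 and 33.7 (adjusted p = 0.434).

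Of the acyl-CoA synthetases, which activate fatty acids, ACSL4 rose and ACSL1 and ACSL3 were not called. ACSL4 prefers arachidonic acid and related polyunsaturated chains. It had 17.6 FPKM in both controls and 26.4 and 26.3 upon knockdown, or 149.9% of control (log2 fold change 0.56, SE 0.06, adjusted p = 0.00215). This was the largest increase among the members. Both transcripts were higher in both knockdown libraries, NM_004458 at 14.7 and 12.8 against 16.2 and 18.9 FPKM and NM_022977 at 2.86 and 4.85 against 10.2 and 7.36. With the most abundant transcript alone the call was lost (log2 fold change 0.33, adjusted p = 0.154). ACSL4 lies on chromosome X (109641335 to 109733257) and shares no exon bases with another gene. ACSL3 had 18.7 and 17.4 FPKM against 15.4 and 16.1 (adjusted p = 0.1003) and ACSL1 had 5.67 and 4.82 against 5.89 and 5.65 (adjusted p = 0.381).

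**Figure D4:**
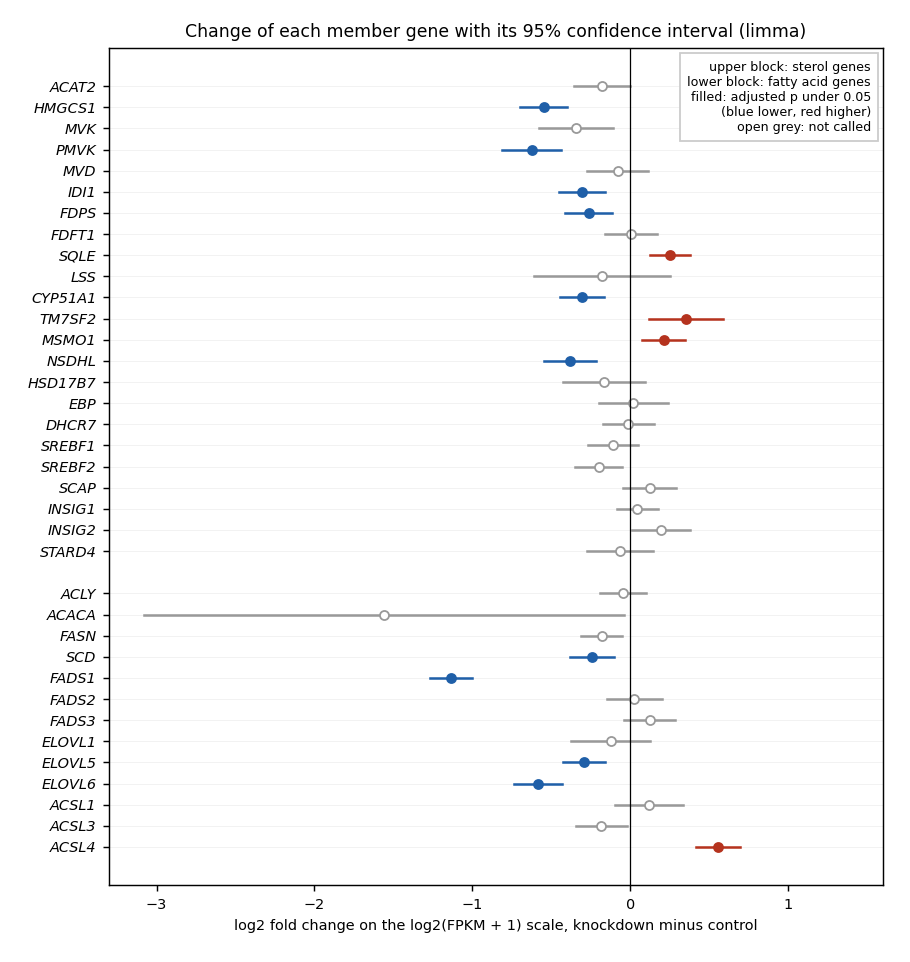
Log2 fold change of each member on the log2(FPKM + 1) scale, knockdown minus control, with its 95% confidence interval from limma. FADS1 at −1.13, PMVK at −0.62, ELOVL6 at −0.58 and HMGCS1 at −0.55 lie to the left and ACSL4 at 0.56 to the right, while ACACA has the widest interval (−3.08 to −0.04).

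Of the 14 calls, 5 (HMGCS1, PMVK, FADS1, ELOVL6 and ACSL4) were kept whichever library was left out. Each of the other 9 was lost without at least 1 of the knockdown libraries. The calls of FDPS, MSMO1, TM7SF2 and SCD were also lost with no filter on low values and with moderation without a trend, and that of NSDHL with no filter (adjusted p = 0.0551). With the most abundant transcript of each gene, 9 of the 14 calls were lost, those of HMGCS1, IDI1, FDPS, SQLE, CYP51A1, TM7SF2, MSMO1, SCD and ACSL4. The log2 fold changes of SQLE (0.25) and SCD (−0.24) were the same in that fit, those of CYP51A1 (−0.28) and FDPS (−0.27) were close to the summed values, and calls over all genes numbered 579.

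Genes beside the listed enzymes were read from 6 further lists, to be set against the 10.9% of all tested genes called higher and the 9.99% called lower. In sterol uptake, transport and efflux, 4 of 11 tested genes rose (36.4%) and 1 fell (9.09%, near the background). MYLIP, a ubiquitin ligase that degrades lipoprotein receptors, went from 13.1 and 14.1 to 24.6 and 25.5 FPKM, or 184.0% of control (log2 fold change 0.83, adjusted p = 0.00103). NR1H2, which encodes the liver X receptor beta, a sterol-sensing nuclear receptor, rose from 19.2 and 16.6 to 26.0 and 24.9 FPKM (log2 fold change 0.49, adjusted p = 0.0094). SCARB1, the HDL receptor, rose by a log2 fold change of 0.35 (adjusted p = 0.0176) and the lipoprotein receptor gene LRP8 by 0.26 (adjusted p = 0.0489). TMEM97, a sterol-regulated membrane protein, fell from 31.6 and 31.7 to 24.4 and 25.8 FPKM (log2 fold change −0.33, adjusted p = 0.0132). MYLIP was called whichever library was left out. The calls were lost without knockdown replicate 1 for NR1H2 (adjusted p = 0.0560), without either knockdown replicate for SCARB1 and TMEM97 (highest adjusted p = 0.1002 and 0.0990), and whichever of the 4 libraries was left out for LRP8 (highest 0.184). With the most abundant transcript alone, SCARB1 was at 0.19 (adjusted p = 0.381) and LRP8 at 0.02 (adjusted p = 0.957).

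In SREBP processing and turnover, 2 of 9 tested genes fell (22.2%, against 9.99% of all genes) and none rose. They were MBTPS2, the intramembrane protease that releases SREBPs (log2 fold change −0.29, adjusted p = 0.0368), and FAF2, an adaptor of endoplasmic reticulum protein degradation (−0.22, adjusted p = 0.0467). Both calls were lost whichever of the 4 libraries was left out (highest adjusted p = 0.137 and 0.184). In the isoprenoid branches, which draw on farnesyl diphosphate, 1 of 9 fell and 1 rose (11.1% each, near the background). There GGPS1, the geranylgeranyl diphosphate synthase, fell from 15.9 and 15.4 to 11.2 and 10.9 FPKM (log2 fold change −0.47, adjusted p = 0.00494). DHDDS, which begins dolichol synthesis, rose from 5.47 and 5.12 to 7.67 and 6.86 FPKM (0.39, adjusted p = 0.02004), and the other 7 tested genes of that list were not called. GGPS1 was called whichever library was left out, and DHDDS was not called without control replicate 2 (adjusted p = 0.0692) or knockdown replicate 1 (0.112). With the most abundant transcript alone, DHDDS was at 0.24 (adjusted p = 0.345) and GGPS1 at −0.37 (adjusted p = 0.0596).

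Among genes that supply fatty acid synthesis or take part in elongation, 3 of 9 tested rose (33.3%, against 10.9% of all genes) and 1 fell (11.1%, near the background of 9.99%). ME1, the malic enzyme that makes cytosolic NADPH, had 10.8 and 10.2 FPKM in control and 18.2 and 19.2 in knockdown, or 178.2% (log2 fold change 0.78, adjusted p = 0.00135). SLC25A1, the mitochondrial citrate carrier, rose by 0.27 (adjusted p = 0.0376). The elongation dehydratase genes HACD2 (0.62, adjusted p = 0.0166) and HACD3 (−0.25, adjusted p = 0.0357) went in opposite directions. ME1 kept its call whichever library was left out. SLC25A1 and HACD3 were not called without control replicate 2, knockdown replicate 1 or knockdown replicate 2 (highest adjusted p = 0.243 and 0.211), nor was HACD2 without control replicate 1 or knockdown replicate 2 (0.0502 and 0.0783).

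Of 7 mitochondrial fatty acid synthesis genes, 2 fell (28.6%, against 9.99% of all genes) and none rose. NDUFAB1, the mitochondrial acyl carrier protein and also a subunit of respiratory complex I, had 116.5 and 118.5 FPKM in control and 40.6 and 40.2 upon knockdown. This was 34.4% of control (log2 fold change −1.52, SE 0.05, adjusted p = 0.000164). CBR4, a reductase of the same pathway, fell by 0.39 on the log2 scale (adjusted p = 0.0201), and the remaining 5 lay between −0.17 and 0.10 with no call. NDUFAB1 kept its call whichever library was left out, and CBR4 lost it without control replicate 2 (adjusted p = 0.0716) or knockdown replicate 1 (0.107). In glycerolipid synthesis, 2 of 9 tested genes rose (22.2%, against 10.9% of all genes) and none fell. DGAT2 (log2 fold change 0.44, adjusted p = 0.0132) and DGAT1 (0.26, adjusted p = 0.0341), which complete triglycerides, were the ones called. Neither was called without knockdown replicate 1 or knockdown replicate 2 (highest adjusted p = 0.0689 for DGAT2 and 0.138 for DGAT1), and DGAT1 was not called without control replicate 2 (0.104).

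**Figure D5:**
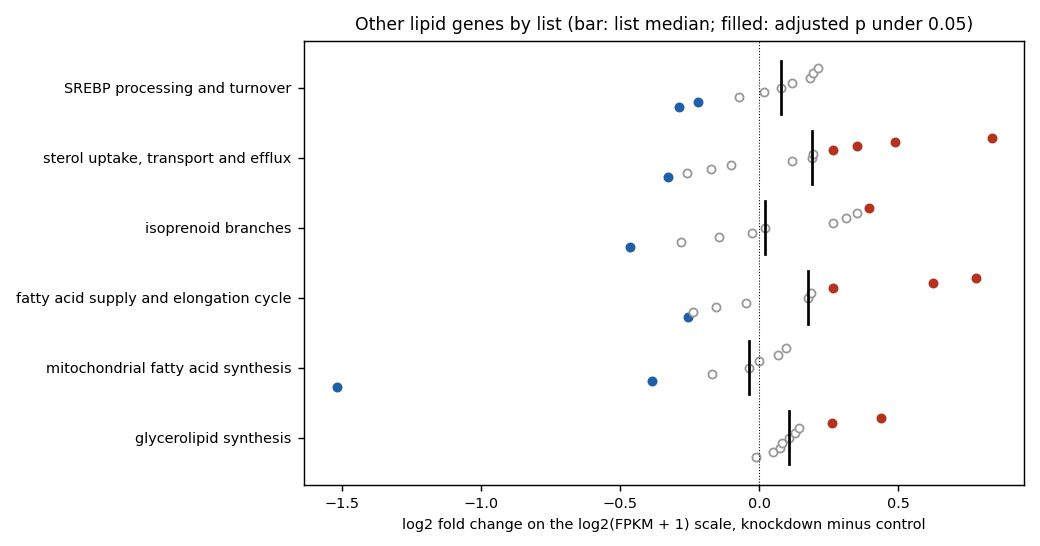
Log2 fold change on the log2(FPKM + 1) scale of the tested genes of 6 further lipid lists, with 1 point per gene, filled where the adjusted p was under 0.05, and a bar at each list median. NDUFAB1 lies alone at −1.52 in mitochondrial fatty acid synthesis, and the medians run from −0.04 there to 0.19 in sterol uptake, transport and efflux.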

How the data were processed

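RNA of 2 control and 2 CEBPG knockdown libraries, labelled NB4, was measured by RNA-seq after total RNA extraction and an Illumina TruSeq library kit. The authors deposited FPKM values per RefSeq transcript (29265 entries), and the submitters' processing notes name HISAT2 2.0.5 and hg38. The quantifier, the annotation release and the strand setting are not given in the sources used here. Entries without a symbol (164, with 0.250% of all FPKM) or without a value (183) were left out, and transcripts were summed per symbol. Genes that averaged 1 FPKM or more over the libraries were compared on log2(FPKM + 1) with limma 3.58.1 in R 4.3.3 (mean trend, 2-sided tests, Benjamini-Hochberg adjustment over 10968 genes), and the code was tested on simulated data. FPKM depends on the estimated division of reads among transcripts and on the total of its library, and depth is unknown, so no counting interval was given. Exon overlaps were taken from GENCODE 44, and positions and promoter windows from RefSeq GRCh38.p14. The members, the lists and the tests were chosen with earlier results of these data known. Every member was named, with CEBPG, the called genes of other lists, except 1 marker gene that is not reported here, and low marker genes as a check of the cell line label. The alternatives were another pseudocount, filter, scaling, moderation, transcript choice, a replicate block and leaving out each library.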

Additional observations from a re-analysis of the deposited data

How the results depend on the processing

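A pseudocount of 0.1 kept the call and direction of all 36 members, while the log2 fold change of ACACA went from −1.56 to −2.865. Calls over all genes (2288) numbered 882 with no filter on low values, 3440 with a replicate block, 579 with the most abundant transcript of each gene, and from 825 to 1925 with 1 library left out. Sterol genes called (9) numbered 5 with no filter, 3 with the most abundant transcript (2 of the 9, and LSS), and from 3 to 9 with 1 library left out (7 of the 9, with ACAT2 and MVK, without control replicate 2). Fatty acid genes called (5) numbered from 3 to 5 with 1 library left out. Median-ratio scaling ended the TM7SF2 call and added MVK, SREBF2 and FASN. A filter at 5 FPKM added MVK, and moderation without a trend ended the calls of FDPS, MSMO1, TM7SF2 and SCD. The median log2 fold change of the sterol genes (−0.11) was −0.13 with a mean of at least 5 FPKM, −0.12 with median-ratio scaling, −0.0745 with the most abundant transcript, and from −0.16 to −0.0548 with 1 library left out. The replicate numbers were not shown to pair the libraries (correlation of deviations 0.101, over 2 pairs), and the replicate block ended no member's call and added 5 (ACAT2, MVK, SREBF2, ACACA and FASN). With the most abundant transcript, 5 members changed sign: LSS (2.85), TM7SF2 (−0.0745), DHCR7 (0.0363), INSIG1 (−0.013) and STARD4 (0.53). LSS was then called higher and ACACA lower. With median-ratio scaling FDFT1 changed sign (−0.00847). With 1 library left out, 9 uncalled members changed sign, over ranges of −0.161 to 0.00411 (MVD), −0.0846 to 0.061 (DHCR7), −0.101 to 0.00696 (ACLY), −0.267 to 0.0205 (ELOVL1), −0.0684 to 0.0801 (FDFT1), −0.101 to 0.142 (EBP), −0.134 to 0.00794 (STARD4), −0.0336 to 0.0837 (FADS2) and −0.46 to 0.10 (LSS). For genes beside the members the alternatives were chosen after seeing the data: CEBPG, MYLIP, ME1, NDUFAB1, HBZ and ALAS2 kept their calls under all 11, whereas each of the others named was lost under at least 1. Fewer libraries or more genes entered some of these fits; otherwise the cause was not tested. With unknown depth, small differences of low genes cannot be given a counting error.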
